A study of Mus musculus with 8 samples.

Results

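The pluripotency genes examined here were *Pou5f1*, *Nanog*, *Sox2*, *Utf1*, *Dppa2*, *Dppa3*, *Dppa4*, *Zfp42*, *Lin28a* and *Tdgf1*, measured in whole mouse embryos after gastrulation. All non-control probes of the array whose RefSeq accession belongs to any of these 10 genes were taken, which gave 15 of the 55681 distinct probes, for 10 of the 20660 genes that a matched probe named. Of these genes, 7 had a single probe on the array and 3 (*Dppa2*, *Dppa4* and *Tdgf1*) had several.

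Pluripotency is the capacity of a cell to form every tissue of the body. *Pou5f1* (which encodes OCT4), *Nanog* and *Sox2* encode the transcription factors at its core, and the other members mark pluripotent cells or assist these factors. As the germ layers form, most cells of the embryo switch these genes off, with *Pou5f1* fading last from the posterior of the embryo. Primordial germ cells keep or regain several of them, and the neural tube (*Sox2*), the early embryo at large (*Lin28a*) and the developing heart (*Tdgf1*) express others.

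The 8 embryos were collected at embryonic day 8.5 (E8.5), each hybridised to its own single-colour array. All carried 1 copy of the hypomorphic *Eed* allele Eedl7Rn5-1989SB, which weakens EED, a core subunit of the histone methyltransferase complex PRC2, on a mixed C57bl6/129 background, and all had wild-type mothers. Homozygous sires (*Eed* hypo/hypo, "HOM father") gave 4 embryos, termed HOM offspring here, and heterozygous sires (*Eed* hypo/wt, "HET father") gave the other 4, termed HET offspring, with 2 females and 2 males in each group, so the groups differed by design in the father's genotype and not in the embryo's. The comparison asks whether PRC2 function in the father's germline is associated with gene expression in the offspring. By the study's account the sires came as littermate pairs from independent matings, a HOM and a HET brother in each. They were fewer than the embryos, so some embryos of a group share a father. The labels do not name the sires, so neither this pairing nor a shared father entered the test between the groups. Embryos were matched for stage and size from photographs. The study also states that its *Eed* colony carried a GFP transgene under *Oct4* regulatory sequence. The labels do not say whether these embryos did. The arrays of each father group lay on a slide of their own, so that slide and father cannot be told apart in any difference given below. Whole embryos were used, in which fewer cells of a type and less RNA per cell cannot be told apart.

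Signal is given as the log2 processed intensity minus the 75th percentile of its array, so that 0 is the 75th percentile. Levels of different probes are not set against each other, because each probe has its own response. Between 51.9% and 60.8% of spots per array were well above background, no spot was saturated, and arrays correlated at between 0.982 and 0.993 across tested probes. Markers of E8.5 tissue (11 of 11 genes, among them *Tnnt2* of the heart, *Pax3* of the dorsal neural tube and somites and *Hbb-bh1* of primitive blood) and of the yolk sac and visceral endoderm (6 of 6) were well above background on all 8 arrays.

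Promoter sequences are shown for the 5 members on which the results turn. *Lin28a* and *Tdgf1* passed the test between the father groups, *Pou5f1* and *Utf1* peaked together in a single embryo, and *Zfp42* varied most among embryos of those detected on every array. Each run is the 250 bases before an annotated start in RefSeq on GRCm38.p6, written 5′ to 3′ on the strand of the gene. The intervals are chr17:35505782-35506031 (plus strand) for *Pou5f1*, where a second annotated start is not shown, chr7:139943606-139943855 (plus) for *Utf1*, chr8:43307010-43307259 (minus) for *Zfp42*, chr4:134018817-134019066 (minus) for *Lin28a* and chr9:110946159-110946408 (minus) for *Tdgf1*. Capitals mark matches on either strand to the GC box GGGCGG, the octamer ATGCAAAT that POU factors bind, the SOX core ACAATG, the TATA box TATAAA or the E box CACGTG.
Pou5f1: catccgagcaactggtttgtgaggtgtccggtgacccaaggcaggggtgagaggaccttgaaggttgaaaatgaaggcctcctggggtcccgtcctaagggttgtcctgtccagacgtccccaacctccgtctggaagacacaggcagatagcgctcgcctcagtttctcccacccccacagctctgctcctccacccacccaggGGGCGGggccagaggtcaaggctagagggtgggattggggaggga
Utf1: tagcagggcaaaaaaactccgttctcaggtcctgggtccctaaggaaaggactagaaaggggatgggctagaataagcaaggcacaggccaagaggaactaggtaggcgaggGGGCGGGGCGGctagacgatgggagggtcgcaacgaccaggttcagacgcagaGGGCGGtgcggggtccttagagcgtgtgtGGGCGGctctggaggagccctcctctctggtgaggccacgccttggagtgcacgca
Zfp42: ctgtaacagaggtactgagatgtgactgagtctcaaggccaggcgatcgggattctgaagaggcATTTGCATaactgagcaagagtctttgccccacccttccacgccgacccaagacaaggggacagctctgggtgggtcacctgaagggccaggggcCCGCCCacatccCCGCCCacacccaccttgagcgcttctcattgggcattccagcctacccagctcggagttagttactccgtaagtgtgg
Lin28a: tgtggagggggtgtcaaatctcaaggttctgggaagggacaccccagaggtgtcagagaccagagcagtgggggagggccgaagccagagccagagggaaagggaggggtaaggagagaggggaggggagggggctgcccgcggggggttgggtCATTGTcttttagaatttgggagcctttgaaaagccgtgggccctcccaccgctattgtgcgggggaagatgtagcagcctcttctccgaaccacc
Tdgf1: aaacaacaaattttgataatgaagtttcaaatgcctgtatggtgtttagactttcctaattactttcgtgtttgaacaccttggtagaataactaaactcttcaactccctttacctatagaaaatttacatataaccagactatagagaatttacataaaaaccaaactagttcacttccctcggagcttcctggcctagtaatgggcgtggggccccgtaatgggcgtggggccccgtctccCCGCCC

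The *Utf1* window held 4 GC boxes, 2 of them overlapping, and the *Pou5f1* window held 1. The *Zfp42* window held 2 GC boxes and the only octamer among these 5 runs, a letter match found in 1.6% of all 32841 windows of this length. The *Lin28a* window held a SOX core and no GC box, and the *Tdgf1* window ended in a GC box. A GC box was present in 32.7% of all windows and a SOX core in 10.7%. No TATA or E box was found in these 5 windows, which says only that those letters are absent there. The windows also differed in composition, from 42% G and C in *Tdgf1* to 62% in *Pou5f1*, against a median of 52.4% over all windows. The table of promoters held 7 of the 10 members. *Dppa2*, *Dppa3* and *Dppa4* were not matched.

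Most of the pluripotency genes were still detected at E8.5. For 8 of the 10 genes, namely *Pou5f1*, *Nanog*, *Sox2*, *Utf1*, *Dppa2*, *Zfp42*, *Lin28a* and *Tdgf1*, at least 1 probe was well above background on all 8 arrays. The remaining pair were *Dppa4*, whose brightest probe was well above background on 7 arrays, and *Dppa3*, whose probe was so on 3. Of the 15 probes, 9 cleared background on every array and 3 on none. These last 3 were further probes of *Dppa2*, *Dppa4* and *Tdgf1*, each of which had a brighter probe. With the scanner's weaker criterion, a signal positive and significantly above background, all 10 genes were detected on all 8 arrays. To enter the test across all probes, a probe had to clear background and reach its array's 20th percentile on at least 4 arrays, which 10 member probes of 9 genes did. *Dppa3* did not.

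**Figure D1:**
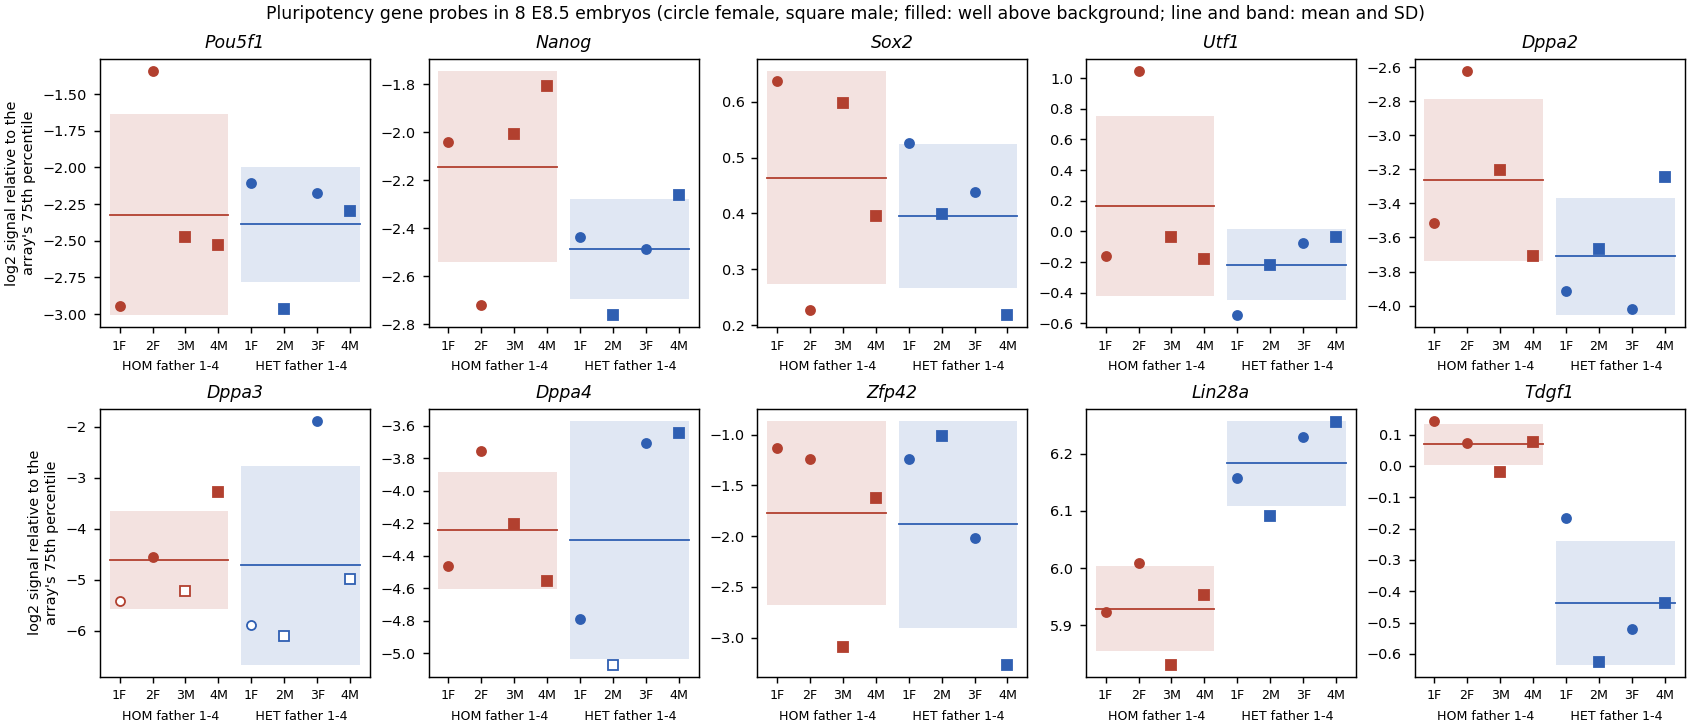
Signal of the brightest probe of each of the 10 pluripotency genes in each of the 8 embryos, as log2 relative to the 75th percentile of the array, with replicate number and sex (F, M) on the horizontal axis. Red marks HOM offspring and blue those of HET fathers, filled points are well above background, and lines and bands are the mean and SD of the 4 embryos. The groups separate for *Lin28a* and *Tdgf1*, HOM father replicate 2 stands highest for *Pou5f1*, *Utf1* and *Dppa2*, and *Zfp42* is low in HOM father replicate 3 and HET father replicate 4.

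Between the father groups, no member probe was called at the limits of the study's methods, an adjusted p below 0.01 with a change of at least 2-fold (limma, 0 of 10, with 1.27% of all 29718 tested probes called). At an adjusted p below 0.05 without a fold limit, 2 of 10 member probes passed, 1 higher and 1 lower in HOM offspring, and the same number passed at an unadjusted 0.05. Of all tested probes 21.0% passed, 12.3% higher and 8.69% lower. The members' share of 20% lay next to that background, so the count itself is no result about the pluripotency genes. The groups did not overlap for the same 2 probes, against 27.1% of all tested probes with no missing value. The median log2 change (HOM minus HET) was 0.09 over the 10 member probes, with 8 of them above 0, and -0.02 over all tested probes.

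**Figure D2:**
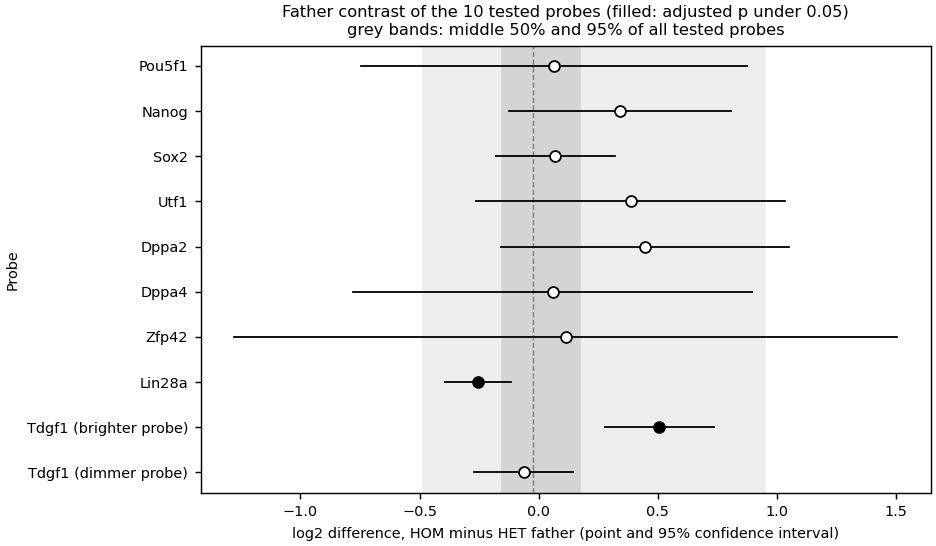
Difference in log2 signal between embryos of HOM and HET fathers for the 10 tested probes, with the 95% confidence interval from limma. Filled points have an adjusted p below 0.05, and the grey bands hold the middle 50% and 95% of the differences of all 29718 tested probes, whose median is the dashed line. *Lin28a* lies below 0 at -0.25, the brighter *Tdgf1* probe lies above it at 0.51, and the intervals of the other 8 probes include 0.

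*Lin28a*, which encodes an RNA-binding protein that blocks maturation of the let-7 microRNAs, was lower in HOM offspring. Its probe (A_55_P2074371) read 5.92, 6.01, 5.83 and 5.95 in HOM father replicates 1 to 4 and 6.16, 6.09, 6.23 and 6.26 in HET father replicates 1 to 4. Every HOM father embryo lay below every HET father embryo, and the spread within a group was small, with an SD of 0.07 in each. The means were 5.93 ± 0.07 and 6.18 ± 0.07 (SD, n = 4), a log2 difference of -0.25 ± 0.06 (SE; 95% confidence interval -0.39 to -0.12), or 1.19-fold higher in HET offspring (limma adjusted p = 0.0216). The sign was kept in all 18 alternative settings, but the adjusted p was below 0.05 in only 11 of them. It was lost without a filter on dim probes (0.101) and with the replicate block (0.0916). It was also lost, at up to 0.0615, without HOM father replicate 1, 3 or 4 or without HET father replicate 3 or 4.

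The partners of *Lin28a* did not pass with it. Of 9 genes of the let-7 and LIN28 axis, all tested and well above background on all arrays, none passed in either direction, and their median change was -0.01. *Lin28b*, the paralogue that shares the let-7 block, differed by 0.03 (limma adjusted p = 0.687). *Hmga2* and *Mycn*, both let-7 targets, differed by less than 0.02 in size (-0.0028 and -0.0143). *Tut7* and *Tut4*, which encode the terminal uridylyl transferases that LIN28 recruits, differed by 0.13 and -0.14 (limma adjusted p of 0.106 and 0.336). The father groups did not overlap for *Tut7*, which was above in HOM offspring, nor for *Igf2bp1*, which was below (difference -0.07, limma adjusted p = 0.268). Over all tested probes with no missing value 27.1% did not overlap, so this is no result about the axis.

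*Tdgf1* encodes Cripto, the GPI-anchored co-receptor for NODAL. Its brighter probe (A_55_P1968028) read 0.14, 0.07, -0.02 and 0.08 in HOM father replicates 1 to 4 and -0.17, -0.63, -0.52 and -0.44 in HET father replicates 1 to 4. All HOM father embryos lay above all HET father embryos, with HET father replicate 1 nearest to them. The means were 0.07 ± 0.07 and -0.44 ± 0.20 (SD, n = 4), a difference of 0.51 ± 0.10 (SE; 95% confidence interval 0.28 to 0.73), or 1.42-fold (limma adjusted p = 0.0108). The probe stayed below 0.05 in 17 of 18 alternative settings. The exception was scaling each array to its median, under which the median change over all tested probes went from -0.02 to -0.21. There *Tdgf1* stood at 0.32 (limma adjusted p = 0.0563), which is 0.53 above the median of all probes, a distance that any such scaling leaves as it is by construction.

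The probes of *Tdgf1* disagreed. The dimmer tested probe (A_55_P2183147) read -3.91, -3.70, -3.71 and -3.92 in HOM offspring and -3.65, -3.75, -3.64 and -3.95 in HET offspring, with overlapping groups and a difference of -0.06 (95% confidence interval -0.27 to 0.15, limma adjusted p = 0.661). Its remaining probe (A_55_P2058540) did not rise well above background anywhere. The files hold no probe sequences, so it was not tested which transcripts, or which of the 2 pseudogenes named after *Tdgf1* in RefSeq, each probe can bind.

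A neighbour of *Tdgf1* on the chromosome differed by more. *Lrrc2*, which encodes a leucine-rich repeat protein and was named after its values were seen, read -0.67, -0.82, -0.85 and -0.45 in HOM father replicates 1 to 4 and -1.88, -2.23, -2.19 and -1.90 in HET father replicates 1 to 4. The difference was 1.36 ± 0.12 (SE, n = 4 per group), or 2.56-fold (limma adjusted p = 0.000446), and it stayed below 0.05 in all 18 alternative settings. A further *Lrrc2* probe never rose well above background. Of the 9 tested probes of genes within 250 kb of *Tdgf1*, *Lrrc2* alone was higher at an adjusted p below 0.05 and 1 was lower. Over all tested probes 12.3% were higher and 8.69% lower, so this count is no result about the locus.

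**Figure D3:**
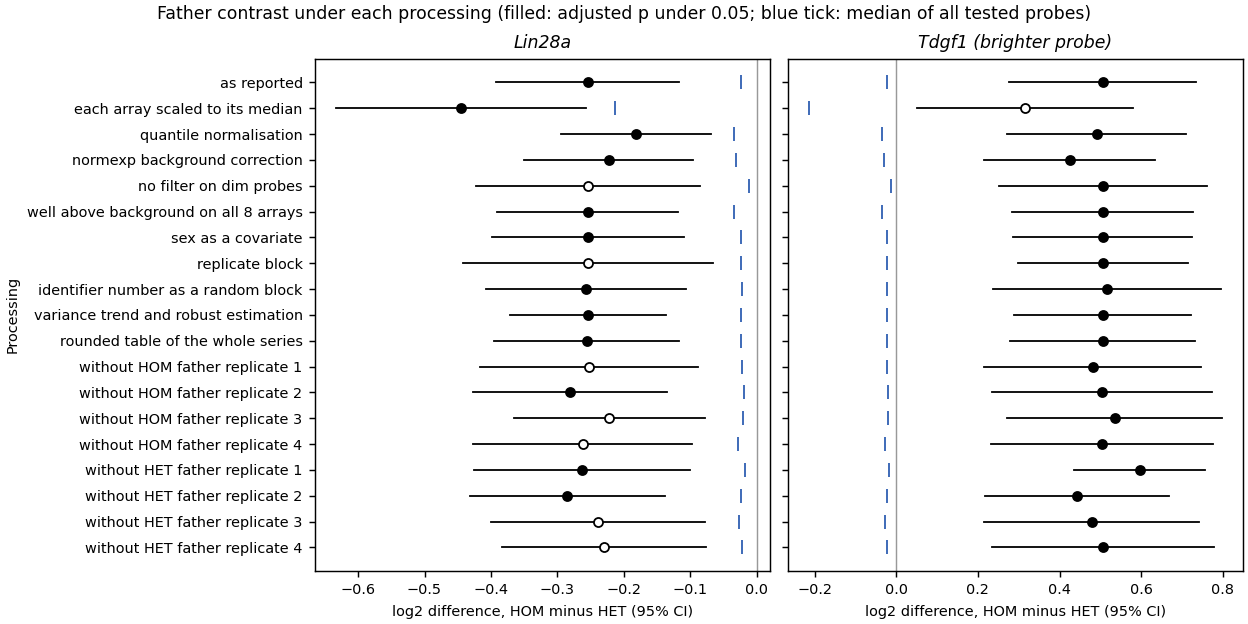
Father difference (HOM minus HET, log2, with 95% confidence interval) of *Lin28a* and of the brighter *Tdgf1* probe as reported and under each of 18 alternative settings. Filled points have an adjusted p below 0.05 and blue ticks mark the median change of all tested probes under that setting. *Lin28a* stays below 0 and *Tdgf1* above 0 throughout, while *Lin28a* loses the threshold in 7 settings and *Tdgf1* in 1.

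The other genes of NODAL signalling were read beside *Tdgf1*. Of 13 genes, all tested and 12 of them well above background on all arrays, 1 was higher and 1 lower in HOM offspring. Their median change was 0.03. Over all tested probes 12.3% were higher and 8.69% lower, so this count is no result about NODAL signalling. *Gdf3*, a TGF-beta family ligand that can signal through the same co-receptor and that lies near *Nanog* and *Dppa3*, was higher, at -1.55 ± 0.13 against -2.26 ± 0.09 (SD, n = 4; difference 0.71, limma adjusted p = 0.00111), and passed in all 18 alternative settings. Its second probe was well above background on 1 array and was not tested. *Acvr2b*, a type II activin receptor, was lower (difference -0.31, limma adjusted p = 0.0117), and it lost the threshold under the replicate block and without a filter on dim probes. *Nodal* itself differed by 0.23 and *Cfc1*, the other co-receptor of this family, by -0.03 (limma adjusted p of 0.179 and 0.951).

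None of the core factors passed between the father groups. *Pou5f1* (A_51_P202340) read -2.94, -1.34, -2.47 and -2.53 in HOM father replicates 1 to 4 and -2.11, -2.96, -2.18 and -2.30 in HET father replicates 1 to 4. HOM father replicate 2 stood highest, and the other 7 embryos of both groups were interleaved. The means were -2.32 ± 0.69 and -2.39 ± 0.39 (SD, n = 4), a difference of 0.07 (95% confidence interval -0.74 to 0.88, limma adjusted p = 0.920), which turned to -0.26 without HOM father replicate 2.

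*Nanog* (A_55_P2007699) read -2.04, -2.72, -2.01 and -1.81 in HOM father replicates 1 to 4 and -2.44, -2.76, -2.48 and -2.26 in HET father replicates 1 to 4. The embryo with the most *Pou5f1*, HOM father replicate 2, was here the lowest of its group and lay among the HET father embryos. The means were -2.14 ± 0.40 and -2.49 ± 0.21 (SD, n = 4), a difference of 0.34 (95% confidence interval -0.12 to 0.81, limma adjusted p = 0.269). Without that embryo the difference was 0.53 and passed (limma adjusted p = 0.0280), and this was the only one of 18 alternative settings in which it did.

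*Sox2* (A_52_P307739) was among the steadier members, with 0.64, 0.23, 0.60 and 0.40 in HOM father replicates 1 to 4 and 0.53, 0.40, 0.44 and 0.22 in HET father replicates 1 to 4. The groups overlapped, with HOM father replicates 1 and 3 above every HET embryo, and the difference was 0.07 (95% confidence interval -0.18 to 0.32, limma adjusted p = 0.692), turning to -0.12 under median scaling. *Sox2* is shared between pluripotent cells and the neural plate, so its neural partners were read too. Of 8 SoxB1 and neural progenitor genes, all tested and detected on all arrays, none passed, and their median change was -0.18. *Sox3* differed by -0.29 and *Nes* by -0.34 (limma adjusted p of 0.0887 and 0.0768), and *Nes* passed in 2 of 18 alternative settings. *Hes5* differed by -0.04. *Sox21* went the other way, at -0.003 to 0.23 in HOM and -0.25 to 0.04 in HET offspring relative to its mean over the arrays.

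*Utf1* encodes a chromatin-bound protein of pluripotent and germ cells. Its probe (A_55_P2104769) read -0.16, 1.04, -0.03 and -0.18 in HOM father replicates 1 to 4 and -0.54, -0.22, -0.07 and -0.03 in HET father replicates 1 to 4. HOM father replicate 2 lay far above the other 7 embryos, which spanned -0.54 to -0.03. The difference was 0.39 (95% confidence interval -0.26 to 1.04, limma adjusted p = 0.371), and 0.09 without that embryo.

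*Dppa2* and *Dppa4* encode paired SAP-domain proteins from adjacent genes and act together on chromatin in early embryos. The brighter *Dppa2* probe (A_66_P136844) read -3.51, -2.62, -3.21 and -3.71 in HOM father replicates 1 to 4 and -3.91, -3.67, -4.02 and -3.24 in HET father replicates 1 to 4. HOM father replicate 2 was again the highest, and the groups overlapped (difference 0.45, 95% confidence interval -0.16 to 1.05, limma adjusted p = 0.264). The tested *Dppa4* probe (A_66_P101192) read -4.46, -3.75, -4.21 and -4.55 in HOM father replicates 1 to 4 and -4.79, -5.07, -3.71 and -3.64 in HET father replicates 1 to 4, and was not well above background in HET father replicate 2. Its difference was 0.06 (95% confidence interval -0.78 to 0.90, limma adjusted p = 0.931) and changed sign in 7 of 17 alternative settings. A dimmer *Dppa4* probe (A_55_P2065549) was well above background in 3 HOM father embryos and in no HET father embryo. Its measured means were -4.63 in HOM and -5.34 in HET offspring, most of these values being too close to background to size a difference. HOM father replicate 4, not well above background, read -4.61, level with HET father replicate 4 at -4.61. It did not enter the test.

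*Dppa3*, which encodes the Stella protein of oocytes, early embryos and primordial germ cells, was the least uniform member. Its probe (A_55_P2091496) read -5.40, -4.55, -5.22 and -3.27 in HOM father replicates 1 to 4 and -5.88, -6.10, -1.88 and -4.98 in HET father replicates 1 to 4. It was well above background in HOM father replicates 2 and 4 and in HET father replicate 3, where it was brightest. The 3 detected embryos included both sexes and both father groups, and the other 5 have only a bound. RefSeq names a pseudogene of *Dppa3*.

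Primordial germ cell genes were read as the setting in which *Dppa3*, *Pou5f1*, *Utf1* and others persist. Of 9 such genes, 8 were tested and detected on all arrays and *Dazl* was detected on none. *Nanos3*, an RNA-binding protein that protects migrating germ cells, was higher in HOM offspring, at 0.68 ± 0.09 against 0.25 ± 0.02 (SD, n = 4; difference 0.43, limma adjusted p = 0.00178), and passed in all 18 alternative settings. *Kit*, the receptor for stem cell factor in germ, blood and pigment cell precursors, was lower (difference -0.25, limma adjusted p = 0.0194), and passed in 14 of 18. The list thus held 1 higher and 1 lower gene, and its median change was 0.20. Over all tested probes 12.3% were higher and 8.69% lower, so this count is no result about germ cells. Relative to its mean over the arrays, *Nanos3* stood at 0.31 in HOM father replicate 2, 0.26 in HOM father replicate 4 and -0.23 in HET father replicate 3. In these embryos *Dppa3* was well above background, and HOM father replicate 2 held the highest *Nanos3* value of all. *Nanos3* followed the father group, at 0.10 to 0.31 in HOM and -0.23 to -0.18 in HET offspring on that scale. HET father replicate 3, where *Dppa3* was brightest, was the lowest embryo for 3 of the 8 germ cell genes detected on all arrays. It was the highest for 0 of them. A germ cell share of the *Dppa3* signal was not tested.

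The 22 other naive and formative pluripotency genes that are not members showed no call. Of these, 19 were tested and 18 were well above background on all 8 arrays, while *Nr0b1* and *Zscan4c* were so on none. None passed by father in either direction, and the median change was -0.06. The largest difference in size was in *Nr5a2*, an orphan nuclear receptor that is also active in endoderm, at -0.86 (limma adjusted p = 0.116). *Esrrb*, *Klf4* and *Tfcp2l1*, naive-state transcription factors, differed by 0.24, 0.04 and 0.24 (limma adjusted p of 0.623, 0.815 and 0.189).

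A single embryo set the pattern of several members. HOM father replicate 2, a female, had the highest signal of *Pou5f1*, *Utf1* and *Dppa2*, which is 3 of the 8 members detected on every array, and was lowest for none of them. Over all 26453 probes tested and detected on every array, it was highest for 15.7% and lowest for 16.2%, so it did not stand high as a whole. The 3 genes most like *Pou5f1* across the 8 arrays, by the root mean square difference after each probe was centred on its mean (0.24 for each, among 17788 named probes), were *Tfap2c*, *Esrrb* and *Gtf2a1l*. *Esrrb* read -0.73 in that embryo and -2.31 to -1.73 in the others, and *Tfap2c* read 1.01 there and -0.15 to 0.16 in the others. These genes were chosen for likeness to *Pou5f1*, which peaked in that embryo. Their high values there follow from the choice and are no further support. *Tfap2c* and *Esrrb* are expressed in trophoblast stem cells as well as in germ or pluripotent cells.

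A probe of *Pou5f1-rs4*, a pseudogene of *Pou5f1* named after its values were seen, followed the same embryo. It read -3.84, -2.66, -3.74 and -3.75 in HOM father replicates 1 to 4 and -3.75, -4.72, -3.96 and -4.16 in HET father replicates 1 to 4 (difference 0.65, 95% confidence interval -0.07 to 1.37, limma adjusted p = 0.181). RefSeq names 7 pseudogenes of *Pou5f1*, 2 of *Nanog* and 1 of *Zfp42*, and only this copy had a matched probe. How far the signal of any of these genes includes its copies was not tested, and the values of these members are uncertain to that extent.

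Some trophoblast and decidua markers were also high in this embryo. Of 7 markers of trophoblast and decidua, 5 were well above background on all arrays, while the spongiotrophoblast marker *Tpbpa* and *Prl3c1* were so on none. The summed linear level of the list, relative to the 75th percentile, ranged from 10.01 to 34.5 in HOM offspring and from 17.2 to 25.1 in HET offspring, and HOM father replicate 2 held the highest sum, with 32.0 in HOM father replicate 3, where *Pou5f1* was not raised. *Ascl2*, a trophoblast transcription factor, read 1.67 in that embryo and -1.98 to -1.29 in the others. *Prl8a2* of the decidua and *Prl3d1* of giant cells read 4.14 and 1.97 there, but *Prl8a2* was higher still, at 4.45, in HOM father replicate 3. *Gcm1* read 3.25 there, below 4 embryos, all of them HET offspring. The neural list had its lowest sum in HOM father replicate 2, at 21.8 against 28.2 to 32.1 in the other 7 embryos, and 4 of its 8 genes were lowest there, *Sox3* at 2.85, *Nes* at 1.96, *Pax6* at -1.81 and *Hes5* at 2.55. The other 4 were not, and *Sox21*, at -0.21, was near the top of its range. Several germ cell genes were high in the same embryo, which held the highest signal of 5 of the 8 detected on all arrays. Among them were *Nanos3*, *Ifitm3* and *Tfap2c*, the last also chosen above for its likeness to *Pou5f1*. The others were not highest there. Relative to their means over the arrays, *Prdm1* and *Dnd1* stood at 0.04 and 0.15 in that embryo and *Kit* at -0.15. The summed level of the germ cell list was 15.1 there and 10.7 to 12.97 in the other 7 embryos. The part of any of these cell types in the *Pou5f1*, *Utf1* and *Dppa2* values was not tested. Within the trophoblast list *Gcm1*, the regulator of syncytiotrophoblast, was lower in HOM offspring (difference -1.07, limma adjusted p = 0.0217), and lost the threshold in 6 of 18 alternative settings, among them the replicate block and leaving out HOM father replicate 1, 3 or 4 or HET father replicate 3. The list as a whole had a median change of 0.61, and *Prl8a2*, *Prl3d1* and *Ascl2* differed the other way, by 2.97, 1.88 and 0.61, without passing (limma adjusted p of 0.215, 0.208 and 0.612). Besides these, *Tbx6* of the tail bud (-0.32), *Myl7* of the heart (-0.25) and *Apoa1* of the yolk sac (-0.41) were lower in HOM offspring (limma adjusted p of 0.0359, 0.0408 and 0.0139). Their lists held 10, 11 and 6 genes, of which 8, 11 and 6 were tested and none passed as higher. Over all tested probes 8.69% were lower and 12.3% higher, so these counts are no result about those tissues. *Tbx6* kept an adjusted p below 0.05 in 8, *Myl7* in 5 and *Apoa1* in 16 of 18 alternative settings. *Apoa1* lost it under the replicate block and without a filter on dim probes. *Wnt3a*, an untested tail bud gene, was well above background in 2 HOM embryos and no HET embryo. It read -5.02 to -4.27 in HOM and -6.50 to -5.31 in HET offspring, most of these values being too close to background to size a difference. *Mixl1*, of the same list, was highest in HET father replicates 3 and 4, at 2.51 and 3.10 relative to its mean over the arrays. On that scale it stood at -1.66 and 0.02 in HET father replicates 1 and 2 and at -1.47 to -0.35 in HOM offspring.

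**Figure D4:**
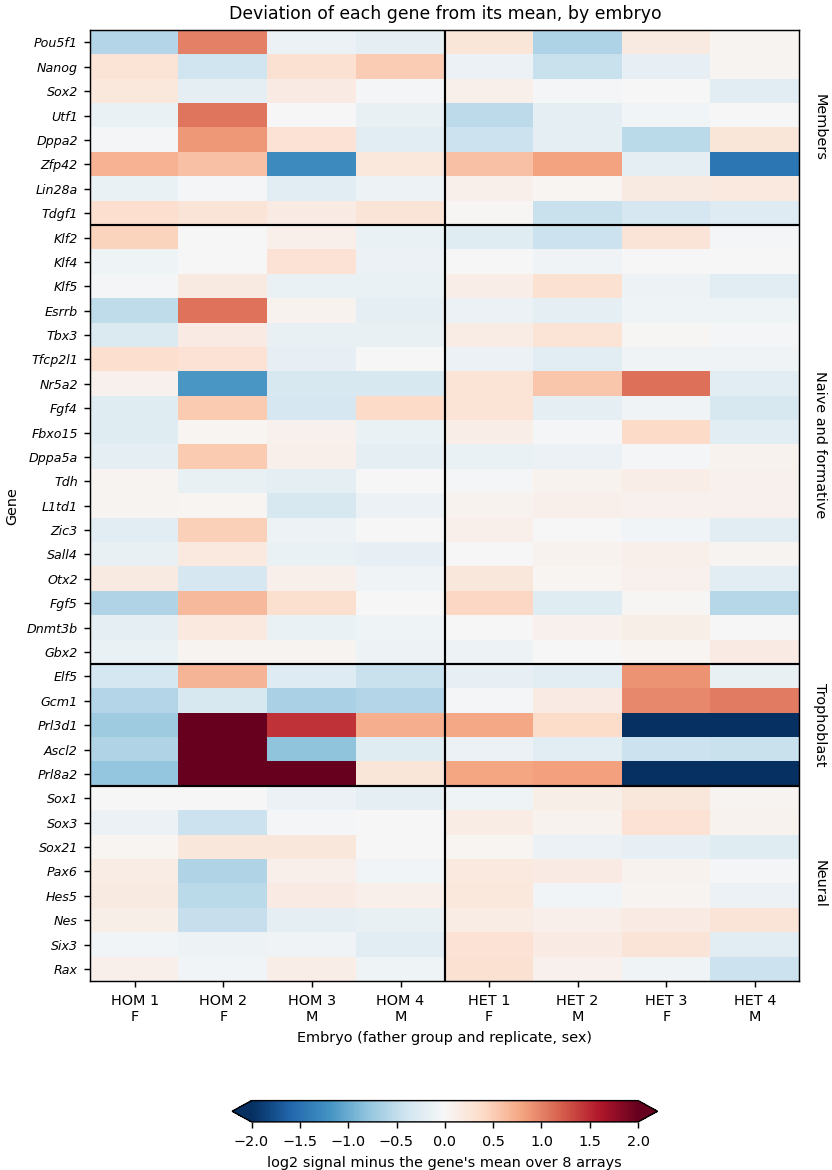
Log2 signal of each gene minus its mean over the 8 arrays, for members, other pluripotency genes, trophoblast markers and neural genes detected on all arrays. Columns are embryos with their sex, and the colour scale ends at 2 in each direction. In HOM father replicate 2, *Pou5f1*, *Utf1*, *Dppa2* and *Esrrb* are high together with *Ascl2*, *Prl8a2* and *Prl3d1*, while *Sox3*, *Nes*, *Pax6* and *Hes5* are low.

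*Zfp42*, which encodes REX1, a zinc finger protein of naive pluripotent cells and of extraembryonic ectoderm, varied most among the members detected on every array. Its probe (A_51_P413376) read -1.13, -1.24, -3.10 and -1.62 in HOM father replicates 1 to 4 and -1.23, -1.02, -2.02 and -3.27 in HET father replicates 1 to 4. HOM father replicate 3 and HET father replicate 4, both males, were lowest, and the 8 embryos spanned 4.76-fold. The SD within father groups was 0.96, larger than in 98.2% of tested probes. The father difference was 0.11 (95% confidence interval -1.28 to 1.51, limma adjusted p = 0.919), so that even a 2-fold difference in either direction lay within the interval.

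The same embryos were low for the neighbours of *Zfp42*, which were examined after its values were seen. *Triml2* read 1.68, 1.18, -0.02 and 0.93 in HOM father replicates 1 to 4 and 1.30, 1.36, 0.84 and -0.23 in HET father replicates 1 to 4, and *Triml1* read -1.33, -1.62, -2.40 and -1.74 and then -1.45, -1.19, -1.69 and -2.33. Both encode tripartite motif family-like proteins. In all 3 genes HOM father replicate 3 and HET father replicate 4 held the lowest values of the 8. *Triml1* and *Triml2* spanned 2.33-fold and 3.76-fold, and neither differed by father (-0.11 and 0.12, limma adjusted p of 0.83 and 0.878). The remaining probed gene within 250 kb, *Adam26b*, went another way, with -2.93 ± 0.10 in HOM offspring and -3.39 ± 0.06 in HET offspring (SD, n = 4; difference 0.45, limma adjusted p = 0.00304), though it lost the threshold under median scaling (0.21, limma adjusted p = 0.0516).

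**Figure D5:**
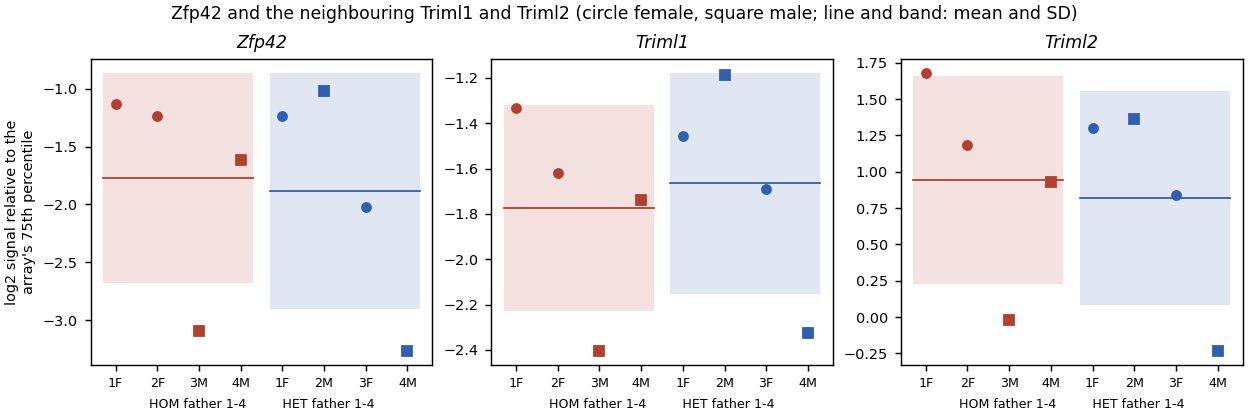
Signal of *Zfp42*, *Triml1* and *Triml2* in each of the 8 embryos, as log2 relative to the 75th percentile of the array, with replicate number and sex on the horizontal axis. Red marks HOM offspring and blue those of HET fathers, and lines and bands are the mean and SD of the 4 embryos. HOM father replicate 3 and HET father replicate 4 are lowest in all 3 panels.

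No association of embryo sex with a member was detected, which with so few embryos does not show that there was none. With father as a covariate, 0 of 10 member probes passed an adjusted p of 0.05 between females and males and 0 passed an unadjusted 0.05 (limma), where 0.121% of all tested probes passed after adjustment. The largest differences were in *Zfp42*, with a mean of -1.41 in females and -2.25 in males, and *Pou5f1*, with -2.14 and -2.57 (limma adjusted p = 0.914 for both). Whether the father difference itself differed between the sexes was tested with an interaction term. It passed for 0 of 10 member probes after adjustment and for 0 at an unadjusted 0.05 (limma), with 0.0639% of all tested probes passing after adjustment.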

How the data were processed

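RNA of 8 E8.5 embryos was hybridised to Agilent SurePrint G3 Mouse GE 8x60K arrays (Cy3). The authors made the deposited spot intensity values with Agilent Feature Extraction 11.0.1.1, which subtracts background. Arrays had not been normalised to each other. The deposited flags, other values of 0 or 1, served as filters. The authors' table of the whole series holds the same intensities rounded, differing by at most 0.497%. Its direction and scale are those of the scanner values. The number of arrays limits the precision.

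Spots flagged as outliers were left out, log2 intensity was reduced by the 75th percentile of its array, and spots of 1 probe were averaged. A probe with several spots counted as well above background where no fewer of them were so than not. Tested probes had to clear background and the 20th percentile of the array on at least 4 arrays, which kept 29718 of 55681 probes. Father groups were compared with limma 3.58.1 in R 4.3.3 (lmFit and eBayes, two-sided, Benjamini-Hochberg adjustment over all tested probes), with no covariate. Sex was tested with father as a covariate, and an interaction of both. The fits were tested on simulated data. Accessions were matched without versions to RefSeq on GRCm38.p6, used for names, neighbours and promoters. Groups, sexes and replicate numbers came from the labels.

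The members, gene lists, motifs and tests were chosen with earlier results of these data known. Every member probe was described. A gene's value was its probe with the highest mean, and of other lists up to 4 genes in each direction with an adjusted p below 0.05 and the largest change were named, with the 3 genes most like *Pou5f1*. *Lrrc2*, *Triml1*, *Triml2*, *Adam26b*, *Pou5f1-rs4*, and genes given as values that did not pass, were named outside this rule. Alternatives were median scaling, quantile normalisation, normexp background correction (offset 50, on median spot signals, since the mean signal was not used here), other filters, sex as a covariate, a replicate block, the leading number of the sample name (of unstated meaning) as a random block, a variance trend with robust estimation, the authors' table, and leaving out each embryo.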

Additional observations from a re-analysis of the deposited data

Results flagged for a closer look

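By Dixon's criterion at the 95% level, an embryo was marked where it stood apart from the remaining embryos of its father group by most of the spread. About 1 in 20 groups is marked by chance. Of 76 groups examined over the named genes, 7 were marked, and chance alone would mark about 3.8. The genes were partly chosen for what they showed in HOM father replicate 2, so the number of marks is no test.

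*Utf1* was marked in HOM father replicate 2, at 1.04 against -0.18 to -0.03 in the other HOM father embryos. In the same embryo *Pou5f1-rs4* was marked at -2.66 (others -3.84 to -3.74), *Gtf2a1l* at -2.15 (others -3.23 to -3.17), *Ascl2* at 1.67 (others -1.98 to -1.42) and *Elf5*, a trophoblast stem cell factor, at -2.30 (others -3.42 to -3.24). *Hes5*, an effector of NOTCH signalling in neural progenitors, was marked there as low, at 2.55 (others 3.19 to 3.27). Among HET offspring, *Elf5* was marked in replicate 3, at -2.08 (others -3.21 to -3.14). *Pou5f1* itself was not marked.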

How the results depend on the processing

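No member probe was called at 2-fold and an adjusted p of 0.01, and none passed by sex or by the interaction, in any setting run. The number of member probes past an adjusted p of 0.05 by father was 2 as reported and 1 under median scaling (*Lin28a*), without a filter on dim probes (*Tdgf1*) and with the replicate block (*Tdgf1*). It ranged from 1 to 3 when single embryos were left out, the 3 being reached without HOM father replicate 2, where *Nanog* was added. The labels do not say whether same-numbered embryos of the groups share more than a number. The correlation of their deviations from the group means ran from -0.13 to 0.19. HOM father replicates 1 and 4 correlated best with their own number, and replicates 2 and 3 did not. Such correlations cannot show whether the embryos were paired. The replicate block took *Lin28a* to a limma adjusted p of 0.0916 and the count over all probes from 6243 to 3487. Over all probes the count past 0.05 was 12689 under median scaling, 3110 without a filter and 4157 without HET father replicate 3, and the count at 2-fold fell from 376 to 145 with normexp, 228 among probes well above background on all arrays and 232 with the replicate block. The cause was not tested.

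Changes that were not significant as reported turned sign as follows. *Pou5f1* was at -0.13 under median scaling and -0.032 under quantile normalisation, *Sox2* at -0.12 under median scaling, and *Zfp42* at -0.077 under median scaling. *Dppa4* was at -0.13 under median scaling, -0.13 under quantile normalisation, -0.046 with normexp and -0.0057 with the leading number of the sample name as a random block. With single embryos left out, *Pou5f1* ranged from -0.26 to 0.27, *Dppa4* from -0.20 to 0.28, and *Zfp42* from -0.35 to 0.56. Under median scaling the median over all tested probes went from -0.02 to -0.21. Signal over background limits *Dppa3* and *Dppa4* most.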
